A study of Mus musculus with 1 sample.

Results

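The ubiquitin-conjugating enzymes, or E2s, were followed through the poly(A) tails of their mRNAs in mouse cells that were leaving naïve pluripotency. Members were taken as the protein-coding genes of the GENCODE vM21 annotation whose symbol begins with Ube2, a rule that uses the symbol alone. The annotation holds 37 such genes. Reads were found for 31 of them and at least 10 reads for 25, among 6754 protein-coding nuclear genes with at least 10 reads.

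The cells were wild-type embryonic stem cells (ESCs) of the ICR strain, kept for 24 h in N2B27 medium with activin A, bFGF and KSR to become epiblast-like cells (EpiLCs). PAIso-seq was used, a method that copies whole mRNAs with their tails and reads each circularised molecule several times on the PacBio platform. The 1 sample holds 2 replicates under different barcodes, numbered here by barcode because the labels do not tie a barcode to a replicate. The study calls its replicates independent, and whether they were separate cultures is not given in the sources used here. Since there is 1 group, no condition was compared, no test between conditions was made, and the SD of the 2 replicates measures their spread only.

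Replicates 1 and 2 gave 354259 and 593361 reads with at least 7 passes, of which 246316 and 455660 were assigned to nuclear genes. E2 genes took 683 and 1101 of these, or 0.277% (95% Wilson interval 0.257 to 0.299) and 0.242% (0.228 to 0.256). In RNA from many cells, fewer cells with a transcript and less of it per cell cannot be told apart. The reads carry no molecular identifiers, so all such intervals cover counting error only. As a check of the labelled cell type, 6 of 6 formative, 4 of 4 shared and 7 of 8 naïve pluripotency markers had reads, Prdm14 being at 0. Of 12 markers of other cells, 7 were at 0, Col1a1, Sox17 and Cdx2 among them, and the others summed to 9 reads.

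An E2 stands in the middle of the ubiquitin cascade. An E1 enzyme activates ubiquitin, the E2 takes it over on its catalytic cysteine, and an E3 ligase brings the loaded E2 to the substrate. The E2 often decides which chain is built: some make chains through lysine K48, which mark proteins for the proteasome, others make K63 chains used in DNA repair and signalling, and a few carry NEDD8, ISG15 or other proteins in place of ubiquitin. A poly(A) tail is added to almost every mRNA in the nucleus, shortened in the cytoplasm by deadenylases, and can receive U bases at its end when it has become short.

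Single tails show what the values below are made of. Each sequence is the tail of 1 read, 5′ to 3′, as T for U, with every A in lower case and every base other than A in capitals. The first lines are the middle tail by length of Ube2z, whose tails were long, and of Ube2k, whose tails were shorter, and neither held a base other than A.

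Ube2z, replicate 2, 108 nt: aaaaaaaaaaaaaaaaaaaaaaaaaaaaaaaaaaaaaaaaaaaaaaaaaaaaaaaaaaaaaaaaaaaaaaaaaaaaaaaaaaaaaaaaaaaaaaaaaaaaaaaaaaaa

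Ube2k, replicate 1, 74 nt: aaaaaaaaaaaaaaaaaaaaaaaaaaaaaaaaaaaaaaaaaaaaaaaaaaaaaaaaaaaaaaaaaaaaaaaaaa

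Next come tails of 6 to 30 nt that ended in T, the class in which a last T was most frequent. In those printed here, 1 to 3 bases other than A stood at the end.

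Ube2q2, replicate 1, 8 nt: aaaaaaTT

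Ube2d3, replicate 1, 9 nt: aaaaaaaTT

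Ube2a, replicate 2, 10 nt, seen in 2 reads: aaaaaaaaTT

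Ube2j1, replicate 2, 15 nt: aaaaaaaaaaaaaaT

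Ube2v2, replicate 1, 18 nt: aaaaaaaaaaaaaaaaaT

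Ube2r2, replicate 1, 20 nt: aaaaaaaaaaaaaaaaaaTT

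Ube2q1, replicate 1, 22 nt: aaaaaaaaaaaaaaaaaaaTTT

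Ube2k is shown for the place of its non-A bases, with a tail that began with T and one with C as base 7.

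Ube2k, replicate 1, 53 nt: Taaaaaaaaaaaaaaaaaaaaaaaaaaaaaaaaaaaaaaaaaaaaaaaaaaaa

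Ube2k, replicate 2, 20 nt, seen in 2 reads: aaaaaaCaaaaaaaaaaaaa

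The longest E2 tail came from Ube2g1 and reached 287 nt, with a G near its end.

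Ube2g1, replicate 1, 287 nt: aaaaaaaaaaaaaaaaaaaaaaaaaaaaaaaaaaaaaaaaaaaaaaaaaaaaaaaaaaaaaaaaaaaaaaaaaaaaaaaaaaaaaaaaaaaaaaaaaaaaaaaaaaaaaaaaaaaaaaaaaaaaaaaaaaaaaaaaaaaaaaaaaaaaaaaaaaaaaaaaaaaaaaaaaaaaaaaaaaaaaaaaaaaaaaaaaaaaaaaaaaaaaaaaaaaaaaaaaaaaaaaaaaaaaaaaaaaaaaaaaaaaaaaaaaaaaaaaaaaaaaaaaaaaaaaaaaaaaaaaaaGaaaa

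Over all 1784 E2 transcripts the median tail was 89 nt, with quartiles of 50 and 135 nt. The replicates differed little, with medians of 88 and 89 nt, beside 91 nt over all 612280 protein-coding transcripts. More than 90 nt were found on 48.9% of E2 transcripts in replicate 1 and 49.1% in replicate 2, against 50.1% of protein-coding transcripts in each. E2 tails ran from 1 to 287 nt, and protein-coding tails from 1 to 566 nt.

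**Figure D1:**
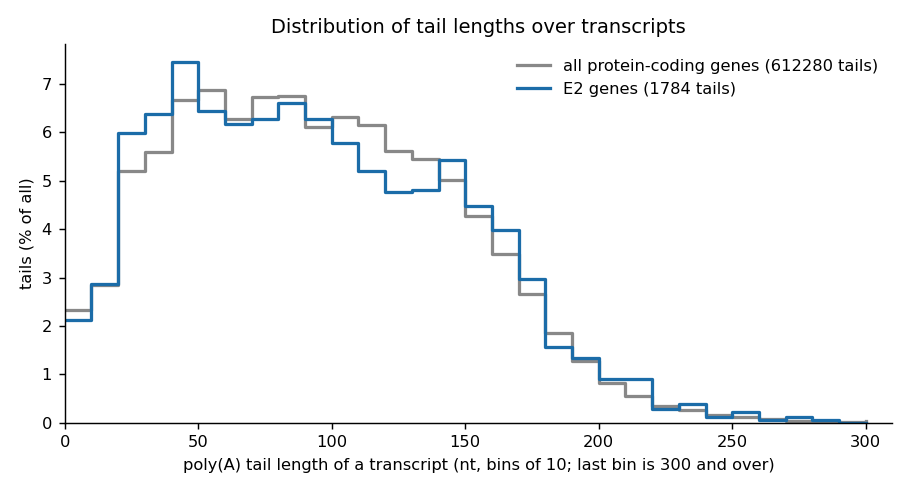
Share of transcripts (y axis, %) by poly(A) tail length (x axis, nt, bins of 10) for 1784 E2 transcripts (blue) and 612280 protein-coding transcripts (grey). The lines run close to each other, with medians of 89 and 91 nt.

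Gene tails, taken as the geometric mean over the transcripts of a gene, had a median of 76.4 nt over the 25 E2 genes, with 76.8 and 75.2 nt in the replicates (76.0 nt ± 1.18, SD, n = 2). The 6754 protein-coding genes had a median of 75.5 nt. The difference of 0.94 nt had the opposite sign within each replicate (-0.28 and -0.59 nt), where fewer genes reached 10 reads, so no direction is given. Of the 25 E2 genes, 11 lay under 75 nt, the boundary between short and long tails used in the study, where the share was 49.0% of all tested protein-coding genes. The count depends on the summary, and so does the background. By their median tail 2 E2 genes lay under 75 nt against 24.8% of protein-coding genes, by the arithmetic mean 0 against 12.5%, and without tails under 6 nt 6 against 35.5%. With all protein-coding genes split by tail length into 4 classes of equal size, 4, 7, 9 and 5 E2 genes fell into the classes from the shortest to the longest. The E2 genes were thus spread over all classes, and the rest of this account is about how they differed from each other.

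**Figure D2:**
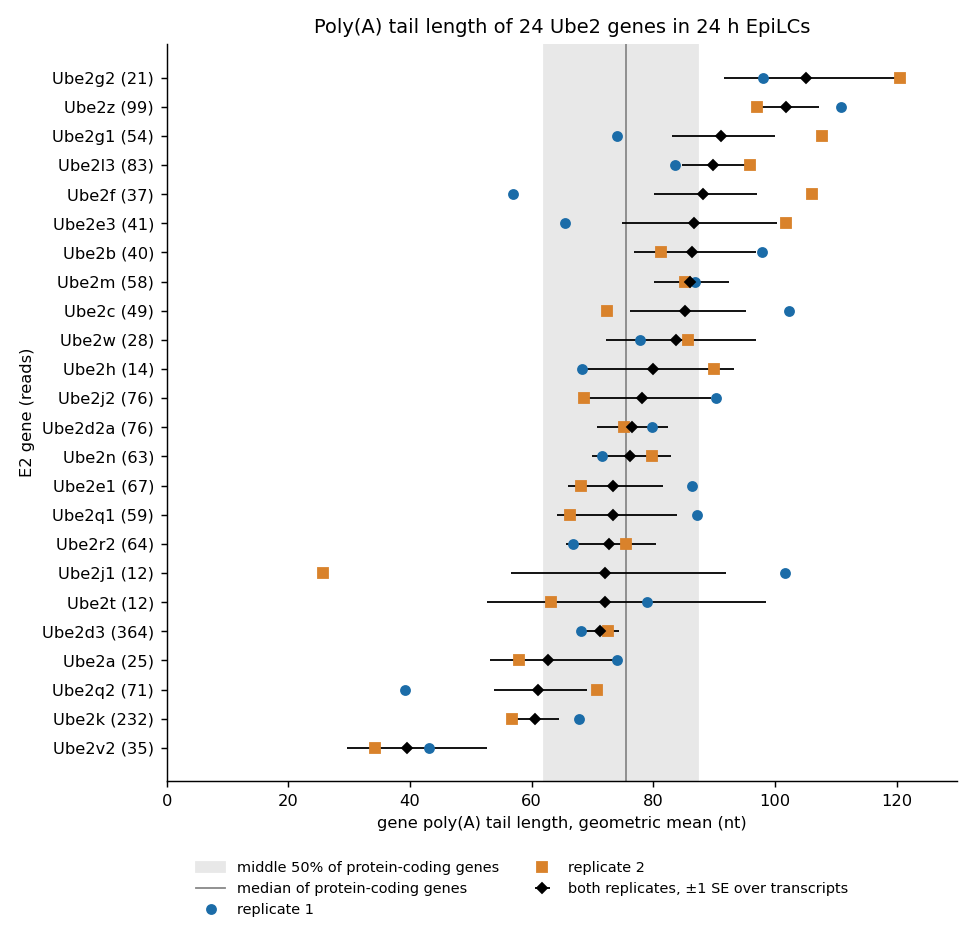
Gene tail length (x axis, nt) of 24 of the 25 E2 genes with at least 10 reads, with reads in brackets (y axis). Circles and squares are replicates 1 and 2, diamonds both together with ±1 standard error over transcripts, the grey band the middle 50% of protein-coding genes. Ube2v2 lies lowest at 39.5 nt and Ube2g2 highest at 105 nt.

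The order of the genes was examined in the 19 E2 genes with at least 10 reads in each replicate. Both replicates lay under 75 nt for 5 of them, among which were Ube2v2, Ube2q2, Ube2k and Ube2d3, or 26.3% against 29.3% of 4018 protein-coding genes. Both lay at or over 75 nt for another 5 (Ube2d2a, Ube2m, Ube2b, Ube2l3 and Ube2z), or 26.3% against 38.5%. The other 9 had 1 replicate on each side, so their side of the boundary was not settled at this depth. Of the 171 pairs among the 19 genes, 73 had replicate values that did not overlap, or 42.7% against 56.9% of all pairs of protein-coding genes. Of the 18 pairs of neighbours in the order, only Ube2k and Ube2d3 had replicate values that did not overlap, by less than 1 nt, and Ube2d3 and Ube2r2, for example, could not be ordered. Across these 19 genes the Spearman correlation of the replicates was 0.15, as a description, against 0.50 across the 4018 genes. The median gap between the replicates was 13.8 nt in the E2 genes and 10.7 nt in all.

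Ube2d3 and its relatives start chains with many E3 ligases and are the most widely used E2s. Ube2d3 (ENSMUSG00000078578, chr3:135438149-135468198 in GRCm38, plus strand) had the most reads of all E2 genes, 364. Its gene tails in the replicates were 68.1 and 72.6 nt (70.3 nt ± 3.12, SD, n = 2), so its values were among the closest of the family. Single tails ran from 1 to 279 nt, with quartiles of 48 and 122 nt. Ube2d2a, whose coding sequence is 86.4% identical to that of Ube2d3, had 79.7 and 75.2 nt (76 reads), and did not overlap with Ube2d3 by gene tail. The median tails in the replicates did overlap, at 88 and 83 nt for Ube2d2a and 75 and 91 nt for Ube2d3. Without tails under 6 nt the gene tails over both replicates were 79.5 nt for Ube2d2a and 76.3 nt for Ube2d3. Ube2d1 had 6 reads and Ube2d2b, 92.7% identical to Ube2d2a, had none.

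The Ube2e enzymes resemble the Ube2d enzymes but carry an amino-terminal extension. Ube2e1 had 86.4 nt in replicate 1 and 68.1 nt in replicate 2 from 67 reads. Ube2e3 went the other way, with 65.5 and 101.8 nt from 41 reads, so the replicates of the pair overlapped. Ube2e2 had 6 reads. Ube2w, which places ubiquitin on the amino terminus of proteins, had 77.8 and 85.7 nt from 28 reads.

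Of the 4 E2s that build K48 chains, Ube2k had the shortest and Ube2g2 the longest gene tail over both replicates. Ube2k (ENSMUSG00000029203, chr5:65537233-65598988, plus strand), an E2 with a ubiquitin-binding domain of its own, had 67.8 and 56.8 nt from 232 reads (62.3 nt ± 7.78, SD, n = 2). Ube2r2, which works with cullin-RING ligases, had 66.8 and 75.5 nt from 64 reads. Ube2g1 (ENSMUSG00000020794, chr11:72607283-72686481, plus strand) had 74.0 and 107.8 nt from 54 reads. Ube2g2, the E2 of endoplasmic reticulum quality control, had 98.1 nt from 14 reads and 120.5 nt from 7 reads. By gene tail Ube2k thus lay below both Ube2g genes in each replicate. The replicates of Ube2r2 overlapped with those of Ube2k and of Ube2g1, and those of the Ube2g genes with each other. The median tail of Ube2k was above that of Ube2g1 in replicate 1 (75 against 72.5 nt) and below it in replicate 2 (70 against 113.5 nt). Without tails under 6 nt the gene tail of Ube2k over both replicates was 67.9 nt. Among Ube2k transcripts, 41.8% (95% Wilson interval 35.6 to 48.2) had over 90 nt, against 66.7% (45.4 to 82.8) of the 21 Ube2g2 transcripts. These intervals overlapped. The close relative of Ube2r2 outside the name family, Cdc34, is 75.6% identical to it in coding sequence and had longer tails, 87.4 and 96.1 nt from 243 reads, which did not overlap with those of Ube2r2.

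Ube2j1 and Ube2j2 sit in the membrane of the endoplasmic reticulum and serve the removal of misfolded proteins. Ube2j2 (ENSMUSG00000023286, chr4:155943831-155959604, plus strand) had 90.2 and 68.6 nt from 76 reads, a middling gene tail. Its single tails were not middling: the median was 116.5 nt and 71.1% (60.04 to 80.04) were over 90 nt, while 13 of 76 had at most 30 nt. Over 90 nt were 27 of its 36 transcripts in replicate 1 and 27 of 40 in replicate 2. The lower gene tail of replicate 2 came with 4 tails of 1 to 5 nt, against 0 in replicate 1. Ube2j1 had 12 reads, with 101.7 nt over 9 reads and 25.7 nt over 3 reads, and 2 of those 3 tails ended in T after at most 16 nt.

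K63 chains are made by Ube2n together with Ube2v1 or Ube2v2, variants that have lost the catalytic cysteine. Ube2v2 (ENSMUSG00000022674, chr16:15552077-15595773, minus strand) had the lowest gene tail of the family, with 43.1 nt over 22 reads and 34.2 nt over 13 reads (38.6 nt ± 6.27, SD, n = 2). Of the other 18 genes with at least 10 reads in each replicate, 17 had both values above both of Ube2v2, the exception being Ube2q2. Ube2v2 was picked here as the lowest of these genes, so a high count was in part set by that choice. By gene tail over both replicates it stood at percentile 6.20 of the 6754 protein-coding genes. The share of protein-coding genes with both values above it was not counted. The median tail of Ube2v2 was 76 nt, however, and the low gene value came with 5 tails of 1 to 5 nt, 2 in replicate 1 and 3 in replicate 2, or 14.3% (6.26 to 29.4) of its transcripts. Without tails under 6 nt its gene tail was 73.0 nt. Ube2n had 71.6 and 79.8 nt from 63 reads, above Ube2v2 in each replicate. Ube2v1, which is 77.7% identical to Ube2v2 in coding sequence, had no reads, and 3 reads of all nuclear reads would be a share of 0.000427%. The exons of Ube2v1 overlap those of Gm20431 on the same strand, a protein-coding gene with 0 reads. How reads in such shared exons were treated is not given in the sources used here, so the absence of reads is no limit on expression.

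**Figure D3:**
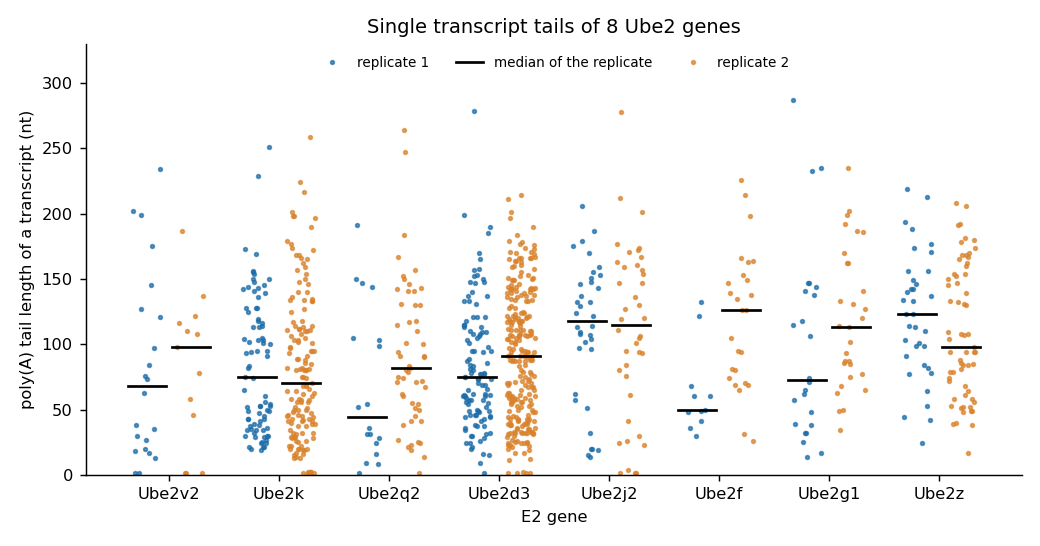
Tail length of every transcript (y axis, nt) of 8 E2 genes (x axis), 1 point per read, replicate 1 in blue and replicate 2 in orange, with black lines at the medians of each replicate. In Ube2v2 points at 1 nt lie apart from a spread that reaches 234 nt, and in Ube2z 2 of 99 points lie at or under 30 nt.

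Ube2c and Ube2s serve the anaphase-promoting complex, the ligase that drives exit from mitosis. Ube2c had 102.3 nt in replicate 1 and 72.3 nt in replicate 2 from 49 reads. Ube2s, which extends the chains that Ube2c starts, had no reads. Its exons overlap those of Rpl28 on the opposite strand, a gene with 15 reads, and how reads in shared exons were treated is not given in the sources used here.

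Ube2a and Ube2b are twin enzymes of histone and DNA damage ubiquitination, 77.6% identical in coding sequence. Ube2a, on the X chromosome, had 74.0 nt over 8 reads and 57.9 nt over 17 reads. Ube2b had 97.9 and 81.3 nt over 13 and 27 reads, above Ube2a in each replicate. Ube2t, the E2 of the Fanconi anaemia pathway, had 79.0 and 63.2 nt from 12 reads.

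NEDD8, which switches on cullin ligases, is carried by Ube2m and Ube2f. Ube2m (ENSMUSG00000005575, chr7:13035120-13038275, minus strand) had 86.8 and 85.2 nt from 58 reads (86.0 nt ± 1.08, SD, n = 2), with no tail at or under 30 nt. Ube2f had 57.0 nt over 11 reads and 106.0 nt over 26 reads, and its replicates lay on both sides of those of Ube2m. The E1 subunits Nae1 (63.02 and 70.3 nt, 86 reads) and Uba3 (59.1 and 81.9 nt, 122 reads) lay below Ube2m in each replicate. The tails of Nedd8 itself were longer than those of Ube2m, at 100.8 and 117.3 nt from 123 reads.

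Ube2z (ENSMUSG00000014349, chr11:96047432-96065388, minus strand) takes ubiquitin from the E1 Uba6 in place of Uba1. It had the highest gene tail over both replicates among the 19 genes with at least 10 reads in each, 101.8 nt, with 110.8 nt over 36 reads and 97.0 nt over 63 reads (103.9 nt ± 9.78, SD, n = 2). Of its transcripts 63.6% (53.8 to 72.4) were over 90 nt, and it had no tail of 1 to 5 nt. The place at the top was not held by every measure: Ube2g1, Ube2f and Ube2e3 were above it in replicate 2. Ube2j2, Ube2b and Ube2e3 had higher median tails, 116.5, 110 and 109 nt against 108 nt, and Ube2j2 also had a higher share over 90 nt. Of the other 18 genes, 13 had both values below both of Ube2z, a count in part set by picking the highest gene. The share of protein-coding genes with both values below it was not counted. By gene tail over both replicates Ube2z stood at percentile 92.2 of the 6754 protein-coding genes. Its E1 went the other way: Uba6 had 48.1 nt over 9 reads and 46.3 nt over 44 reads, while Uba1, which charges most E2s, had 94.7 and 104.8 nt from 320 reads. The low gene tail of Uba6 came with tails of 1 to 5 nt, at 7.55% of its transcripts, and its median tail was 58 nt. Ube2l6, the E2 of ISG15, had 3 reads, and its E1 Uba7 none.

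Among the remaining members, Ube2l3, the partner of HECT and RBR ligases, had 83.5 and 95.9 nt from 83 reads. Ube2q1 had 87.1 and 66.2 nt from 59 reads and Ube2q2 had 39.2 nt over 18 reads and 70.8 nt over 53 reads, so the pair overlapped. In Ube2q2, 33.3% of tails in replicate 1 and 15.1% in replicate 2 had at most 30 nt. Ube2h, an E2 of the CTLH ligase complex, had 68.2 and 89.97 nt from 14 reads. Ube2cbp, named as a Ube2c-binding protein and not a canonical E2, had 9 reads, Ube2o 8 and Ube2dnl1 1. Together with Ube2d1, Ube2e2 and Ube2l6 they made the 6 members with fewer than 10 reads. No reads were found for Ube2v1, Ube2s, Ube2d2b, Ube2dnl2, Ube2u and Ube2ql1.

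The genes on either side of the E2s in the cascade were described in the same way, with lists chosen when earlier results of these data were known. Of 8 E1 genes with at least 10 reads, 3 lay under 75 nt, with a median of 77.6 nt. Of 12 genes of ubiquitin and ubiquitin-like proteins, 2 lay under 75 nt, with a median of 89.5 nt, and Nedd8 was the longest of those with at least 30 reads in each replicate. Of 41 genes of E3 ligases and their partners, 27 lay under 75 nt, with a median of 64.6 nt, from Huwe1 (70.9 and 25 nt) to Skp1a (99.4 and 113.6 nt) among those with at least 30 reads in each replicate. Of 30 deubiquitinase genes, 18 lay under 75 nt, with a median of 70.3 nt, from Usp9x (54.3 and 26.4 nt) to Usp5 (107.0 and 97.7 nt). The low gene tails of Huwe1 and Usp9x came with tails of 1 to 5 nt, at 24.2% and 15.6% of transcripts. Their median tails were 73 and 51 nt. Beside these lists, the E2 median was 76.4 nt and the background share under 75 nt was 49.0%. Another 6 E2s that are not named Ube2 had a median of 82.5 nt, with 3 under 75 nt.

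The annotated mRNAs of the 25 E2 genes were taken as the longest protein-coding transcript. Their median length was 3077 nt, close to 3084.5 nt for all protein-coding genes, but the coding part was shorter, 549 nt against 1341 nt. In some genes this coding part differed from the one used for coding identity. It was 297 against 510 nt in Ube2g1 and 342 against 462 nt in Ube2l3. The correlations below use the longest transcript. Across the 6754 genes, longer coding parts went with shorter tails, with a Spearman correlation of -0.38. Across the 25 E2 genes the value was -0.05, and it was -0.07 for the length of the whole mRNA and -0.09 for the number of reads. These values describe genes measured in the same libraries, which are not independent, and no test was made.

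Very short tails were rare. Of E2 transcripts 34 had 1 to 5 nt, 22 of them a single base, and 29 of the 34 were in replicate 2. The share was 0.732% (0.313 to 1.70) in replicate 1 and 2.63% (1.84 to 3.76) in replicate 2, and the protein-coding background moved in the same way, from 0.988% to 2.55%. They came from 13 genes, and 12 of 25 E2 genes had none, where 55.6% of protein-coding genes had none. Ube2k had 7, all of 1 or 2 nt and all in replicate 2, and Ube2d3 had 6, 5 of them in replicate 2.

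A base other than A was present in 188 E2 tails, or 12.4% (10.2 to 15.1) in replicate 1 and 9.36% (7.77 to 11.2) in replicate 2. The protein-coding background was 12.4% and 9.77%. T was the most frequent of these bases, in 112 tails, before C in 52 and G in 42. Among the E2 genes with at least 10 reads the share ran from 0 of 12 tails of Ube2t to 5 of 25 tails of Ube2a (8.86 to 39.1%), and the intervals of Ube2t and Ube2a overlapped. Non-A bases were found in 16.9% (9.94 to 27.3) of tails for Ube2q2, with 33.3% in replicate 1 and 11.3% in replicate 2, in 7.97% (5.60 to 11.2) for Ube2d3 and in 4.04% (1.58 to 9.93) for Ube2z.

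The last base depended on the length of the tail. As in the short tails printed above, T was the last base of 8 of 27 E2 tails of 6 to 15 nt, or 29.6% (15.9 to 48.5), and of 19 of 150 tails of 16 to 30 nt, or 12.7% (8.26 to 18.9). For E2 tails of 61 to 90 nt it was 0.893% (0.304 to 2.59), an interval that does not overlap with that of the tails of 6 to 15 nt. In protein-coding genes the same 3 classes had 25.5%, 13.7% and 2.11%. The 27 E2 tails of 6 to 30 nt that ended in T came from 15 genes. Ube2d3 had the most, 5, and was also the gene with the most reads, 364 of 1784.

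**Figure D4:**
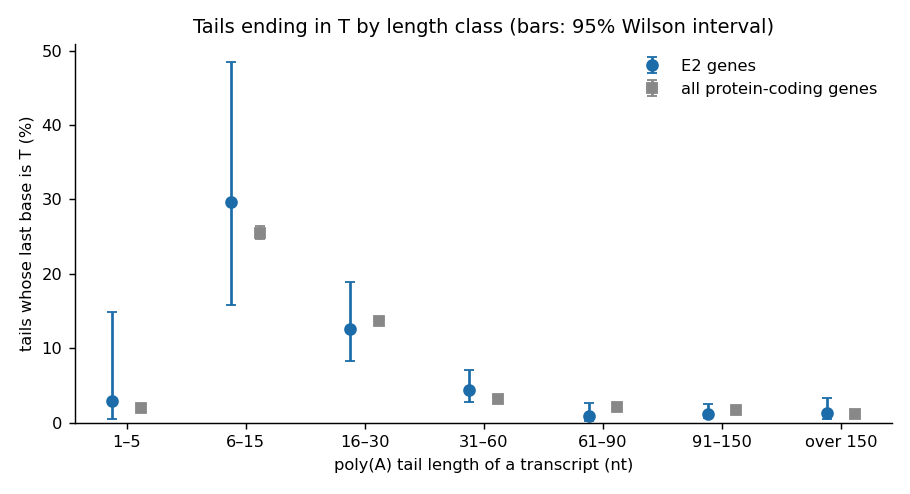
Share of tails whose last base is T (y axis, %) by tail length (x axis, nt) for E2 genes (blue) and all protein-coding genes (grey), with 95% Wilson intervals. The E2 share is highest at 6 to 15 nt, at 29.6%, and lowest at 61 to 90 nt, at 0.893%.

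The ends of Ube2k tails were looked at after their values were seen, so no test was made. None of its 37 tails of 6 to 30 nt ended in T, which allows a share of up to 8.11%, while 27 of 140 such tails of the other E2 genes did, or 19.3% (13.6 to 26.6). At the other end, 7 of the 10 E2 tails that began with T were of Ube2k, 2 in replicate 1 and 5 in replicate 2. That is 3.06% (1.49 to 6.17) of its tails of at least 2 nt, against 0.196% (0.0666 to 0.574) in the other E2 genes and 0.624% in protein-coding genes, as a description. C was base 7 of 3 Ube2k tails, all in replicate 2, and of 4 E2 tails in all. The first base of a tail follows the last base aligned to the genome, and the part of this border in the values was not tested.

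Several E2 genes have near-identical processed pseudogenes, copies of the mRNA inserted elsewhere in the genome, and reads of one can be assigned to the other. With at least 98% identity over at least 200 nt, 16 copies of 9 E2 genes were found in the annotation, and 8 copies held 752 reads, or 29.7% of the reads of E2 genes and copies together. Values of those E2 genes are therefore uncertain. Gm8325 (chr3:60877014-60877587), 99.5% identical to Ube2v1 over 424 nt, had 330 reads, more than any E2 gene but Ube2d3, while Ube2v1 itself had none. Its tails were 82.1 and 74.8 nt.

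Ube2v2 had a lower gene tail than its copy. Gm6361 (chr15:31446383-31446817) is identical to Ube2v2 over 435 nt and had 132 reads with tails of 76.7 and 78.9 nt, against 43.1 and 34.2 nt for Ube2v2. The gap was smaller by other measures, with medians of 76 nt for Ube2v2 and 81 nt for Gm6361, and 73.0 and 77.9 nt without tails under 6 nt. With the reads of both its copies added, Ube2v2 had 67.7 nt. For Ube2n the copy had the higher value in both replicates (Ube2n-ps1, 101.5 and 80.3 nt, 71 reads, against 71.6 and 79.8 nt). The same held for Ube2d2a (Gm9762, 82.0 and 87.5 nt, 51 reads, against 79.7 and 75.2 nt). The values were close in replicate 2 of Ube2n and in replicate 1 of Ube2d2a. Gm10705 (95.5 and 63.3 nt, 39 reads) was above Ube2l3 in replicate 1 and below it in replicate 2.

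None of the 752 tails on copies had 1 to 5 nt, which allows a share of up to 0.399%, while 7 of 328 tails on the parent genes of copies with at least 10 reads did, or 2.13% (1.04 to 4.34). Of those 7 tails, 5 were of Ube2v2, 1 of Ube2d2a and 1 of Ube2n, so the share of the parents came mostly from 1 gene. In replicates 1 and 2 the counts were 0 of 443 and 0 of 309 on copies, and 2 of 153 and 5 of 175 on the parents. Tails at or under 30 nt were 8.24% (6.48 to 10.4) of those on copies and 12.8% (9.61 to 16.9) of those on the parents. The gap was in replicate 1, with 8.35% and 17.6%, while replicate 2 had 8.09% and 8.57%. Ube2v1, 1 of these 6 parents, had no reads and added nothing to the 328, while its copy Gm8325 held 330 of the 752 tails.

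**Figure D5:**
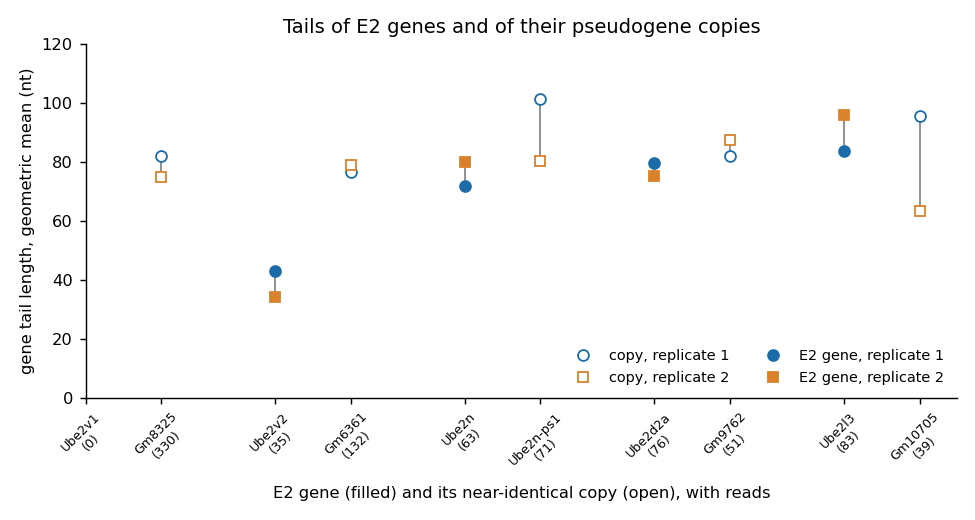
Gene tail length (y axis, nt) of 5 E2 genes, Ube2v1 among them (filled), and their near-identical pseudogene copies (open), with reads in brackets, circles for replicate 1 and squares for replicate 2. Ube2v2 lies below its copy Gm6361 in both replicates, and Ube2v1 has no value because it had no reads.

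The share of reads of a gene also moved between replicates for some E2 genes. Per 100000 nuclear reads, Ube2v2 had 8.93 (5.90 to 13.5) in replicate 1 and 2.85 (1.67 to 4.88) in replicate 2. Ube2m, with 12.6 (8.87 to 17.9) and 5.93 (4.07 to 8.62), and Ube2g2 were also higher in replicate 1 beyond counting error. In all 4 of the 25 E2 genes were, against 6.25% of protein-coding genes, and 0 were higher in replicate 2, against 4.75%. The intervals of the other 21 genes overlapped. Gm8325 moved most among the genes and copies examined, from 103.9 (92.0 to 117.5) to 16.2 (12.9 to 20.4). Ube2d3 had 45.1 (37.4 to 54.3) and 55.5 (49.1 to 62.8), and Ube2k had 33.7 (27.2 to 41.8) and 32.7 (27.9 to 38.4), so the intervals overlapped for both of the genes with the most reads.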

How the data were processed

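PAIso-seq measured tails in 1 sample of wild-type 24h-EpiLCs with 2 barcoded replicates. The authors built consensus reads with ccs, mapped them to mm10 with minimap2 2.17, took the 3′ soft-clipped bases as the tail, extended it into adjoining A bases, dropped reads without one, and assigned genes with featureCounts 2.0.1 (tool versions per the submitters' processing notes). The strand setting was not given in the sources used here. The deposited table gives, per read, counts of passes and counts of each base in the tail, without normalization.

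Tail length was the count of A plus non-A bases. Reads with at least 7 passes were kept, the gene tail was the geometric mean for genes with at least 10 reads, and shares carry 95% Wilson intervals, or, where 0, the share that 3 reads would be. Identifiers were placed with GENCODE vM21 (GRCm38). Copies were found with blastn 2.17.0 and coding identity with Biopython 1.88. E2 genes with at least 10 reads are given with values and the others by read number, except 1 E2 gene that is counted in the totals but whose own values are not reported here. Partners are named only as an E1, a variant or relative, or the extremes of a list. Members and lists were chosen with earlier results of these data known. Alternatives changed passes, length, the shortest tail, the summary, the reads needed, the background and the replicates. Scripts (Python 3.11.15, pandas 2.3.3, scipy 1.17.1) were tested on simulated tails.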

Additional observations from a re-analysis of the deposited data

Results flagged for a closer look

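The following signals lie outside the values of the E2 genes, in reads assigned to pseudogenes or removed by the pass filter. They were picked out because each exceeds the 3 reads that a count of 0 allows. Of the near-identical copies, Gm8325 (copy of Ube2v1) had 330 reads, Gm6361 (Ube2v2) 132, Ube2n-ps1 (Ube2n) 71, Gm9762 (Ube2d2a) 51, Gm10705 (Ube2l3) 39 and Gm6565 (Ube2v2) 4. Whether these reads came from the pseudogenes or from the E2 genes was not tested. A further 128 reads of E2 genes had fewer than 7 passes, 47 in replicate 1 and 81 in replicate 2.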

How the results depend on the processing

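No paired analysis was possible because there is 1 group with 2 replicates and no contrast. The pooled difference between the E2 and protein-coding medians, 0.94 nt, was -0.79 nt with no pass filter, and -0.59 to -0.28 nt when either replicate was left out. Stricter filters of 8 and 15 passes gave 1.72 and 5.31 nt, and the other alternatives gave 4.61 and 2.69 nt with tails of at least 6 and 15 nt, 5.61 nt with arithmetic means, 2.63 and 1.73 nt with at least 5 and 20 reads, 0.0602 nt with at least 10 reads in each replicate, 0.0366 nt against all nuclear genes, and 4.41 nt with copies added, an alternative chosen after seeing the data. The E2 median, 76.4 nt, was 74.5 nt with no pass filter, 80.8 nt under a filter of 15 passes, 85.1 and 85.3 nt with tails of at least 6 and 15 nt, 98.9 nt with arithmetic means, 89 nt with medians, 78.1 nt with at least 5 reads, 79.9 nt with copies added, and 75.2 to 76.8 nt without either replicate. The 11 genes under 75 nt became 6, 6, 5, 0 and 2 with at least 15 passes, tails of at least 6 and 15 nt, arithmetic means and medians, and rose to 14 with no pass filter and, among 29 genes, to 12 with at least 5 reads. The share of E2 transcripts over 90 nt stayed between 48.7% (no pass filter) and 50.5% (at least 15 nt), with 49.4% at 15 passes and 50% from 6 nt. Bases other than A were in 7.01% of tails without the first and last base. Among single genes, Ube2v2 (39.5 nt) became 73.0 and 77.5 nt with tails of at least 6 and 15 nt, 81.7 nt as an arithmetic mean, 76 nt as a median and 67.7 nt with copies added. Without replicate 2, Ube2f had 57.0 nt and Ube2q2 39.2 nt, and without replicate 1, Ube2j1 had 25.7 nt from 3 reads. Depth also limits single genes, since the replicates of an E2 gene lay a median of 13.8 nt apart.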
